A study of Mus musculus with 7 samples.

Results

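The 10 genes described here encode the acyltransferases and phosphatases that build triglyceride in the mouse: *Gpam*, *Gpat3* and *Gpat4*, *Agpat2* and *Agpat3*, *Lpin1* and *Lpin2*, *Dgat1* and *Dgat2*, and *Mogat1*. They were taken by symbol from the table of liver gene counts, where 10 of 10 were found among 23347 genes, and 10 of 10 had enough counts to be among the 15179 genes tested. The livers came from male C57BL/6 mice that were 6 to 8 weeks old at the start and then ate CDAHFD, a high-fat diet that lacks choline and supplies amino acids in place of protein, for 15 weeks. In 4 of the mice *B4galt1*, which encodes a Golgi galactosyltransferase, was flanked by loxP sites (*B4galt1* flox/flox, called WT in the labels). In the other 3, labelled *B4galt1* hep-/-, the same floxed alleles were combined with Cre under the albumin promoter, which is active in hepatocytes. The study describes this knockout as hepatocyte-specific. Each mouse gave 1 RNA-seq library of whole liver. All 7 mice ate CDAHFD, and mice on chow are not analysed here.

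Hepatocytes make triglyceride mainly by the glycerol-3-phosphate route. Glycerol-3-phosphate acyltransferases (GPAT enzymes) add the first fatty acid, 1-acylglycerol-3-phosphate acyltransferases (AGPAT enzymes) add the next to give phosphatidate, lipins remove the phosphate to give diacylglycerol, and diacylglycerol acyltransferases (DGAT enzymes) add the last fatty acid. A side route, prominent in the intestine, starts from monoacylglycerol and uses MOGAT enzymes. In a fatty liver these steps fill the lipid droplets of hepatocytes, and diacylglycerol is also the precursor of phosphatidylcholine, which a diet without choline depletes.

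Reads counted per library numbered 37838654 to 39668509 for *B4galt1* flox/flox livers and 30608271 to 34586588 in the livers labelled *B4galt1* hep-/-. Mitochondrially encoded transcripts took 5.79% ± 1.70 of the counts in the former (SD, n = 4) and 19.7% ± 4.58 in the latter (SD, n = 3), so this share and the depth both move with the group. *B4galt1* was at 28.4, 23.9 and 53.7 CPM (counts scaled to the TMM-normalized library size) in replicates 1, 2 and 3 labelled *B4galt1* hep-/-, against 48.7 to 53.0 CPM in *B4galt1* flox/flox livers (log2 fold change -0.52, SE 0.26, edgeR adjusted p = 0.181, and -0.96 without replicate 3). In FPKM replicate 3, at 11.9, lay just below the 12.2 to 14.0 of the *B4galt1* flox/flox livers, and limma called *B4galt1* lower on log2(FPKM + 1) (-0.67, limma adjusted p = 0.0389) but not without a filter on low values (limma adjusted p = 0.108). Because replicate 3 went against its label in CPM and stood apart from replicates 1 and 2 on both scales, groups are named by label throughout, and values are also given without that library where it moved a log2 difference of the 10 genes by over 1.5 times. Summed CPM of 6 hepatocyte markers overlapped between the groups (86785 to 126249 against 97538 to 154982) and none of the 6 was called different. Of 6 macrophage markers, 3 (*Adgre1*, *Cd68* and *Lyz2*) were called lower in the livers labelled *B4galt1* hep-/-, and their list summed to 442 to 514 CPM there and 1008 to 2287 CPM in *B4galt1* flox/flox livers. The part of the macrophage difference, of the mitochondrial share and of depth in the results below was not tested, beyond a fit without mitochondrially encoded genes. The stellate, cholangiocyte and lymphocyte lists had no called gene, the endothelial list had 1 (*Kdr*, lower), and 4 adipocyte markers summed to at most 0.198 CPM in any liver. Reads of whole liver cannot tell fewer cells of a type from less RNA per cell.

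Of the 10 triglyceride synthesis genes, 1 was called lower in the livers labelled *B4galt1* hep-/-, *Dgat2*, and 0 were called higher. A call required an absolute log2 fold change over 0.58 and an adjusted p-value under 0.05, where adjusted p-values are those of the edgeR quasi-likelihood fit over all tested genes, corrected by Benjamini-Hochberg, unless another method is named. By this rule 15.8% of all tested genes were called, 7.83% lower and 8.0% higher (16.0% by the adjusted p alone), so 1 of 10 is no more than the background. The balance of all calls depended on the scale, with 50.5% of them higher here and 24.5% higher when limma was run on log2(FPKM + 1). Without replicate 3 labelled *B4galt1* hep-/- the count was also 1, *Dgat2* again. With mitochondrially encoded genes left out of the fit, *Dgat2* was again the 1 gene called (log2 fold change -0.81, edgeR adjusted p = 0.0239). Without the adjustment, 2 of the 10, *Dgat2* and *Gpam*, had p under 0.05, as did 32.9% of all tested genes. The CPM values of 5 of the 10 did not overlap between the groups, 4 below (*Gpam*, *Gpat4*, *Agpat3* and *Dgat2*) and 1 above (*Lpin2*), while 28.6% of all tested genes did not overlap, 15.0% below and 13.6% above. The median log2 fold change of the 10 was -0.16, against 0.02 over all tested genes. In each of the 5 genes without overlap, replicate 3 was the liver labelled *B4galt1* hep-/- that lay nearest to the *B4galt1* flox/flox mean, as it was in 45.2% of the 4342 such genes overall.

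**Figure D1:**
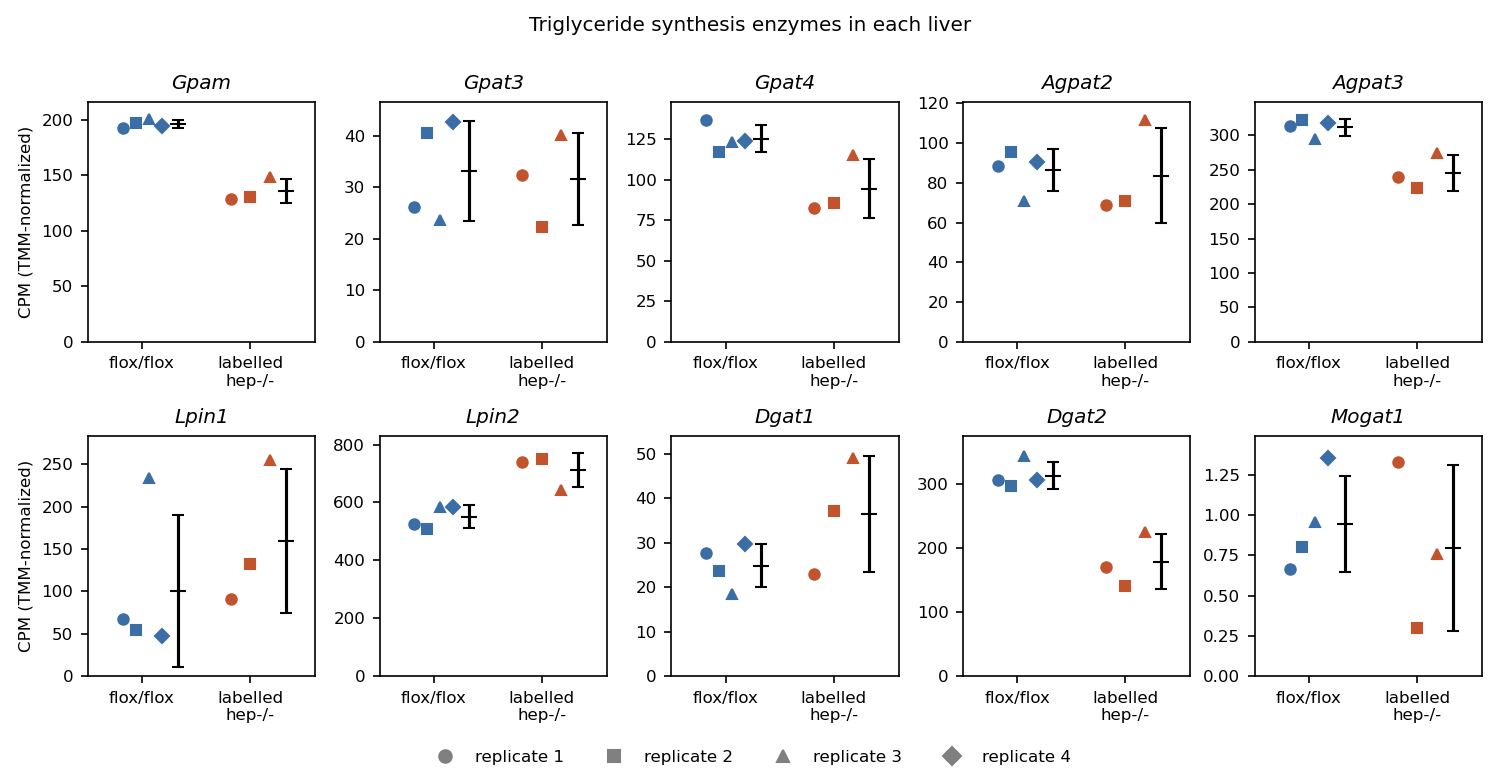
TMM-normalized CPM (y axis, starting at 0) of the 10 triglyceride synthesis genes in each liver, with *B4galt1* flox/flox mice in blue, mice labelled *B4galt1* hep-/- in orange, replicate numbers as symbols, and the mean ± SD in black beside each group (n = 4 and n = 3). *Dgat2*, *Gpam*, *Gpat4* and *Agpat3* separate downwards and *Lpin2* upwards, while *Lpin1* spans 47.0 to 234 CPM within the *B4galt1* flox/flox group.

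Before the comparison, the genes differ greatly in level. FPKM, which divides by gene length, allows levels of different genes to be set side by side. In *B4galt1* flox/flox livers *Dgat2* stood first at 145 ± 18.1 FPKM (SD, n = 4), followed by *Agpat2* at 56.9 ± 6.93 and *Agpat3* at 41.2 ± 3.23 FPKM, and these ranges did not touch. *Gpam* (29.6 FPKM), *Lpin2* (25.6), *Gpat4* (23.2), *Lpin1* (14.3), *Gpat3* (11.1) and *Dgat1* (9.66 FPKM) then formed a series in which each range overlapped the next. *Mogat1* was last at 0.684 ± 0.165 FPKM (SD, n = 4). In the livers labelled *B4galt1* hep-/-, *Dgat2* was again first at 74.9 ± 11.5 FPKM (SD, n = 3) *Agpat2* next and *Mogat1* last. *Lpin2* moved from the fifth place to the third, ahead of *Agpat3*, with 25.3 to 36.3 FPKM against 27.5 to 30.7 for *Agpat3*, whereas in *B4galt1* flox/flox livers these ranges lay apart (22.8 to 28.2 against 37.7 to 45.5 FPKM). *Lpin1* and *Gpam* moved to the fifth and the sixth place with overlapping ranges, and *Dgat1* came before *Gpat3*, a neighbouring pair whose ranges overlapped in both groups. Mice of a group also differed more in some genes than in others. The SD of CPM among *B4galt1* flox/flox livers was 1.74% of the mean for *Gpam* and 3.91% for *Agpat3*, but 29.3% for *Gpat3* and 88.9% for *Lpin1*.

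*Dgat2* (NCBI gene 67800, chromosome 7) encodes the diacylglycerol acyltransferase that sits at the endoplasmic reticulum and the lipid droplet and prefers newly made fatty acids. It was measured at 307, 297, 344 and 306 CPM in *B4galt1* flox/flox replicates 1 to 4, and at 170, 142 and 226 CPM in replicates 1 to 3 labelled *B4galt1* hep-/-. Every liver of the latter group was below every liver of the former. *Dgat2* fell by 0.81 on the log2 scale (SE 0.21, 95% interval -1.27 to -0.35, edgeR adjusted p = 0.0266). The decrease did not depend on replicate 3, without which the log2 fold change was -1.02 (edgeR adjusted p = 0.0150). With 1 mouse omitted the call held in 2 of 7 fits, those without *B4galt1* flox/flox replicate 1 or without replicate 3 labelled *B4galt1* hep-/-. It was lost without *B4galt1* flox/flox replicate 2, 3 or 4 or without replicate 1 or 2 labelled *B4galt1* hep-/-, where log2 fold changes ran from -0.84 to -0.66.

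*Dgat1* (NCBI gene 13350, chromosome 15) encodes the other diacylglycerol acyltransferase, an unrelated protein of the endoplasmic reticulum that also esterifies fatty acids taken up from outside. It had 27.7, 23.6, 18.5 and 29.6 CPM in *B4galt1* flox/flox livers and 23.1, 37.1 and 49.1 CPM in replicates 1 to 3 labelled *B4galt1* hep-/-. Replicates 2 and 3 of the latter lay above all *B4galt1* flox/flox livers and replicate 1 lay among them. The fitted difference was 0.55 on the log2 scale (SE 0.26, 95% interval -0.01 to 1.11, edgeR adjusted p = 0.157). It was 0.27 without replicate 3 labelled *B4galt1* hep-/- (edgeR adjusted p = 0.507) and 0.78 without replicate 1 of that group (edgeR adjusted p = 0.0547).

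A ratio of 2 genes within 1 library does not depend on how libraries are scaled, so both DGAT genes were also compared in that way. *Dgat2* exceeded *Dgat1* by 13.1-, 14.9-, 22.1- and 12.2-fold in *B4galt1* flox/flox replicates 1 to 4, in FPKM. In replicates 1 to 3 labelled *B4galt1* hep-/- the ratios were 8.76, 4.52 and 5.45, below every *B4galt1* flox/flox liver. The mean log2 ratio was 3.92 ± 0.38 (SD, n = 4) against 2.58 ± 0.49 (SD, n = 3), a difference of -1.34 (exact permutation p = 0.0286, two-sided, which no split of 4 mice against 3 can go below). After adjustment over the 4 isozyme ratios examined the exact permutation p was 0.114, which does not pass. Without replicate 3 labelled *B4galt1* hep-/- the difference was -1.27. *Dgat1* accordingly made up 4.33% to 7.55% of the summed DGAT FPKM in *B4galt1* flox/flox livers and 10.3% to 18.1% in the livers labelled *B4galt1* hep-/-.

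**Figure D2:**
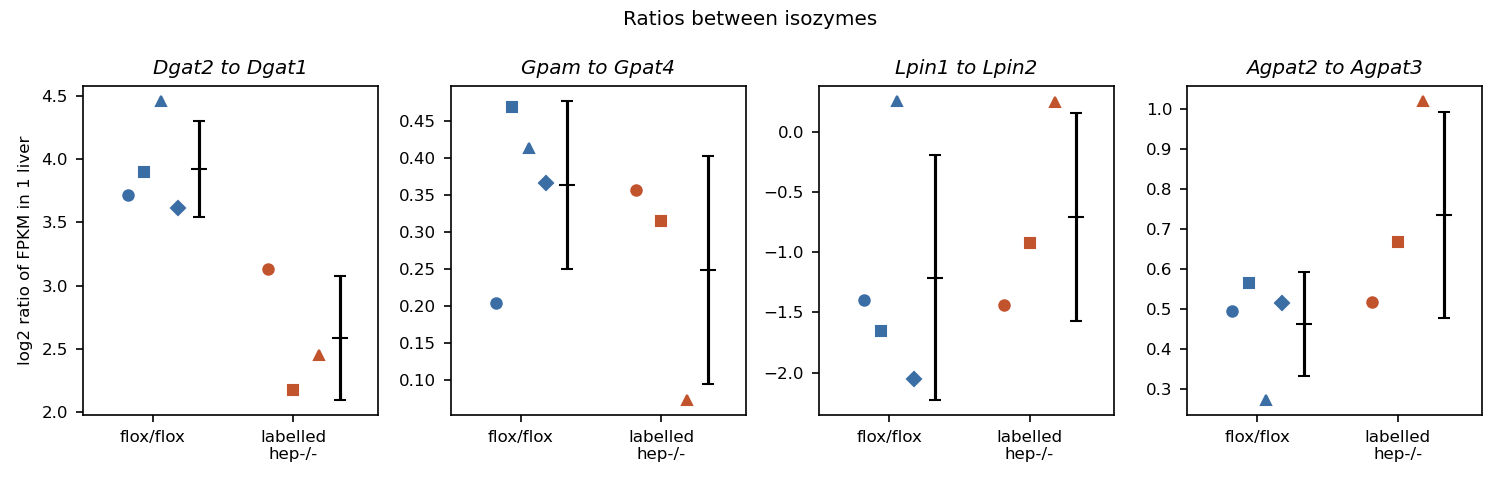
Log2 ratio of FPKM between pairs of isozymes in each liver (y axes differ and do not start at 0), with symbols as replicate numbers, blue for *B4galt1* flox/flox, orange for livers labelled *B4galt1* hep-/-, and the mean ± SD in black (n = 4 and n = 3). The *Dgat2* to *Dgat1* ratio does not overlap between the groups, with means of 3.92 and 2.58, whereas the other pairs overlap.

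The first step, acylation of glycerol-3-phosphate, is shared by *Gpam*, *Gpat3* and *Gpat4*. *Gpam* (NCBI gene 14732, chromosome 19) encodes GPAT1 of the outer mitochondrial membrane, which prefers saturated acyl-CoA and is induced by insulin and SREBP-1c. RefSeq gives it a pair of start sites on GRCm38.p6. Both are printed here, 5′ to 3′ from 250 bases before to 50 after the start, because *Gpam* came next after *Dgat2* in adjusted p among the 10 genes. Capitals mark matches to the motif CCAAT or GGGCGG on either strand. The upstream promoter (chr19:55127189-55127488, minus strand) holds CCAAT on the reverse strand from position -74 relative to the start, and the downstream one (chr19:55099428-55099727, minus strand) holds GGGCGG on the reverse strand from position -16.
Gpam upstream promoter: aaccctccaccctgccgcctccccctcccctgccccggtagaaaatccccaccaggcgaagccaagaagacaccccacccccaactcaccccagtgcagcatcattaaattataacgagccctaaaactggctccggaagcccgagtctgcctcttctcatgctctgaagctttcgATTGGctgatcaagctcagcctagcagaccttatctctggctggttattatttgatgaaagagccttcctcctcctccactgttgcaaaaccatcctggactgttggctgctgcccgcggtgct
Gpam downstream promoter: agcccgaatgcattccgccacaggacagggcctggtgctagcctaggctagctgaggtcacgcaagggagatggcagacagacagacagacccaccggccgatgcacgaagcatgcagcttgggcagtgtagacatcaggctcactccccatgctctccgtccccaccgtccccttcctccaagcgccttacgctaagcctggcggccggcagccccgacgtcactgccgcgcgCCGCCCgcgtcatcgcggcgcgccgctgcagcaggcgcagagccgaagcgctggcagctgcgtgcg
Promoters were found for 7 of the 10 genes, 10 promoters in all. *Gpat4*, *Dgat1* and *Dgat2* had no entry. CCAAT was present in 3 of the 10 promoters and in 37.4% of all 32851 promoters of this length, and GGGCGG in 5 and in 35.7%. The SREBP element TCACNCCAC was in 0 of the 10 and in 1.24% overall. Direct repeats of AGGTCA, as bound by PPAR and LXR receptors with RXR, were also in 0 of the 10, in 0.0396% of all promoters with a spacing of 1 base and in 0.0152% with a spacing of 4. Both strands were searched, and no match says only that these letters are not in this window.

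*Gpam* had 192, 197, 200 and 195 CPM in *B4galt1* flox/flox replicates 1 to 4, which lie within 1.04-fold of each other. The livers labelled *B4galt1* hep-/- gave 129, 130 and 148 CPM, all below it. The difference was -0.53 on the log2 scale (SE 0.17, 95% interval -0.91 to -0.15), with an edgeR adjusted p of 0.0584, so it passed neither threshold. Some other fits on the counts gave about the same difference with an adjusted p under 0.05, so that *Gpam* missed the fold threshold alone there. These were DESeq2 (-0.52, DESeq2 adjusted p = 0.0113), voom with sample weights (-0.54, limma adjusted p = 0.0263) and edgeR on genes with at least 10 counts in every liver (-0.52, edgeR adjusted p = 0.0471). The rest did not pass 0.05. The edgeR adjusted p was 0.0551 with upper-quartile scaling, 0.0613 with RLE scaling and 0.0549 without mitochondrially encoded genes. It was 0.112 without a count filter, 0.255 with the replicate block, and 0.0583 to 0.141 with a mouse omitted. With limma on log2(FPKM + 1) *Gpam* was called lower (-0.63, limma adjusted p = 0.0120), and so it was on log2(FPKM + 0.1) at -0.66. These scales moved the median of all genes by -0.09 and -0.13, respectively. *Gpat4* (NCBI gene 102247, chromosome 8), a GPAT of the endoplasmic reticulum that can move to growing lipid droplets, had 137, 117, 123 and 124 CPM in *B4galt1* flox/flox livers and 82.4, 86.0 and 115 CPM in the others. The groups did not overlap, though replicate 3 labelled *B4galt1* hep-/-, at 115 CPM, came close to the lowest *B4galt1* flox/flox liver at 117 CPM. Its log2 fold change was -0.41 (SE 0.19, edgeR adjusted p = 0.161). On log2(FPKM + 1) it was -0.52 (limma adjusted p = 0.0463, or 0.0878 without a filter), short of the fold threshold. *Gpat3* (NCBI gene 231510, chromosome 5), the related enzyme best known from adipose tissue, had 26.2, 40.6, 23.6 and 42.6 CPM against 32.3, 22.3 and 40.1 CPM. These ranges lie almost on top of each other, with a log2 fold change of -0.07 (95% interval -0.65 to 0.50) whose sign changed when single mice were left out. *Gpat3* shares 1052 exon bases with the antisense gene *4930458D05Rik* in the GENCODE annotation of GRCm38, where reads cannot be assigned without strand. The *Gpam* to *Gpat4* ratio was 1.15 to 1.38 in *B4galt1* flox/flox livers and 1.05 to 1.28 in the livers labelled *B4galt1* hep-/- (exact permutation p = 0.314, adjusted 0.419). Their log2 ratio differed by -0.11 between the groups, and by -0.03 without replicate 3 labelled *B4galt1* hep-/-. Without that liver the log2 fold changes were -0.58 for *Gpat4* and -0.29 for *Gpat3*, neither called.

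At the AGPAT step, *Agpat2* (NCBI gene 67512, chromosome 2), whose loss causes lipodystrophy, had 88.5, 95.3, 71.1 and 90.7 CPM in *B4galt1* flox/flox livers. In the livers labelled *B4galt1* hep-/- it had 68.7, 70.9 and 111 CPM, so that these livers lay on both sides of the *B4galt1* flox/flox range. The difference, -0.05 on the log2 scale, was small against its interval (95% interval -0.52 to 0.43). *Agpat2* likewise shares 64 exon bases with *Egfl7* on the other strand. *Agpat3* (NCBI gene 28169, chromosome 10) encodes an acyltransferase that favours polyunsaturated acyl-CoA. It had 314, 322, 294 and 317 CPM in *B4galt1* flox/flox livers and 240, 223 and 275 CPM in replicates 1 to 3 labelled *B4galt1* hep-/-, without overlap. The log2 fold change of -0.34 (SE 0.18, edgeR adjusted p = 0.215) did not pass. On log2(FPKM + 1) it was -0.46 (limma adjusted p = 0.0339), short of the fold threshold. The *Agpat2* to *Agpat3* ratio of FPKM was 1.21 to 1.48 and 1.43 to 2.03 in the respective groups (exact permutation p = 0.0571, adjusted 0.114). The log2 ratio differed by 0.27, and by 0.13 without replicate 3 labelled *B4galt1* hep-/-, where the log2 fold change of *Agpat2* was -0.32. *Agpat1*, the widely expressed isozyme and not among the 10, was called higher in the livers labelled *B4galt1* hep-/-. Its values were 25.3, 18.4, 15.0 and 20.8 CPM against 27.6, 41.7 and 35.5 CPM, a log2 fold change of 0.81 (SE 0.22, edgeR adjusted p = 0.0290). It was called in 9 of 18 alternatives and in 2 of 7 fits with a mouse omitted. Limma on FPKM did not call it, and its FPKM ranges overlapped (5.44 to 9.72 against 8.38 to 15.2). It shares 101 exon bases with *Egfl8* on the other strand. *Agpat1* made up 5.42% to 7.72% of the FPKM summed over *Agpat1* to *Agpat5* in *B4galt1* flox/flox livers and 9.71% to 15.2% in the others.

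The lipins convert phosphatidate to diacylglycerol, and lipin 1 also acts in the nucleus as a coactivator. *Lpin2* (NCBI gene 64898, chromosome 17) was the lipin with the higher counts. It had 527, 509, 585 and 583 CPM in *B4galt1* flox/flox replicates 1 to 4 and 740, 750 and 644 CPM in the livers labelled *B4galt1* hep-/-, all above the former. The log2 fold change was 0.37 (SE 0.19, 95% interval -0.05 to 0.78), with an edgeR adjusted p of 0.201. In FPKM, which is scaled to the library total, the ranges overlapped (22.8 to 28.2 against 25.3 to 36.3). The first of its 3 RefSeq promoters (chr17:71183282-71183581, plus strand, GRCm38.p6) is shown because it was the one promoter of the 10 with the E-box CACGTG, from position -9, with GGGCGG on either side of it. The E-box is the motif of the clock and of other basic helix-loop-helix factors, and 7.15% of all promoters hold it.
Lpin2 first promoter: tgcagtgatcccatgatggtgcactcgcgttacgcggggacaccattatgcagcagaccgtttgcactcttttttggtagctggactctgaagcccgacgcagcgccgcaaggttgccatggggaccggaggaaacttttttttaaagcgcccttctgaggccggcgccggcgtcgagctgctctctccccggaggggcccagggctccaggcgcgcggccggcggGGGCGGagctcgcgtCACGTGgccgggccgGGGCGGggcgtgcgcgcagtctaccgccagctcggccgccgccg

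*Lpin1* (NCBI gene 14245, chromosome 12) encodes the lipin that fasting, glucocorticoids and PGC-1α induce in liver and whose level also follows the circadian clock. It had 66.9, 53.9, 234 and 47.0 CPM in *B4galt1* flox/flox replicates 1 to 4, a 4.97-fold range set by replicate 3. In replicates 1 to 3 labelled *B4galt1* hep-/- it had 91.3, 132 and 255 CPM, a 2.80-fold range. These 3 livers were above *B4galt1* flox/flox replicates 1, 2 and 4, and 1 of them was above replicate 3. The log2 fold change was 0.67 with a SE of 0.53 (95% interval -0.48 to 1.82, edgeR adjusted p = 0.402). Single mice decide this value. Without *B4galt1* flox/flox replicate 3 it was 1.51 and passed both thresholds (edgeR adjusted p = 0.0269), and without replicate 3 labelled *B4galt1* hep-/- it was 0.14 (adjusted p = 0.885). The *Lpin1* to *Lpin2* ratio of FPKM ranged from 0.241 to 1.19 in *B4galt1* flox/flox livers and from 0.369 to 1.19 in the others (exact permutation p = 0.514, also 0.514 adjusted), and *Lpin1* took between 18.5% and 52.8% of the summed lipin FPKM over all livers. The log2 ratio differed by 0.51 between the groups, and by 0.03 without replicate 3 labelled *B4galt1* hep-/-.

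*Mogat1* (NCBI gene 68393, chromosome 1) encodes a monoacylglycerol acyltransferase that is low in normal liver and induced by PPARγ in steatosis. Between 10 and 48 reads per library were counted. The *B4galt1* flox/flox livers had 0.667, 0.803, 0.961 and 1.36 CPM, and replicates 1 to 3 labelled *B4galt1* hep-/- had 1.33, 0.302 and 0.757 CPM, the group with both the lowest liver and one near the highest. The log2 fold change was -0.25 with a 95% interval of -1.45 to 0.95, so no difference was detectable at this depth and the interval holds changes of either direction. *Mogat1* shares 200 exon bases with *BC035947* on the other strand.

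**Figure D3:**
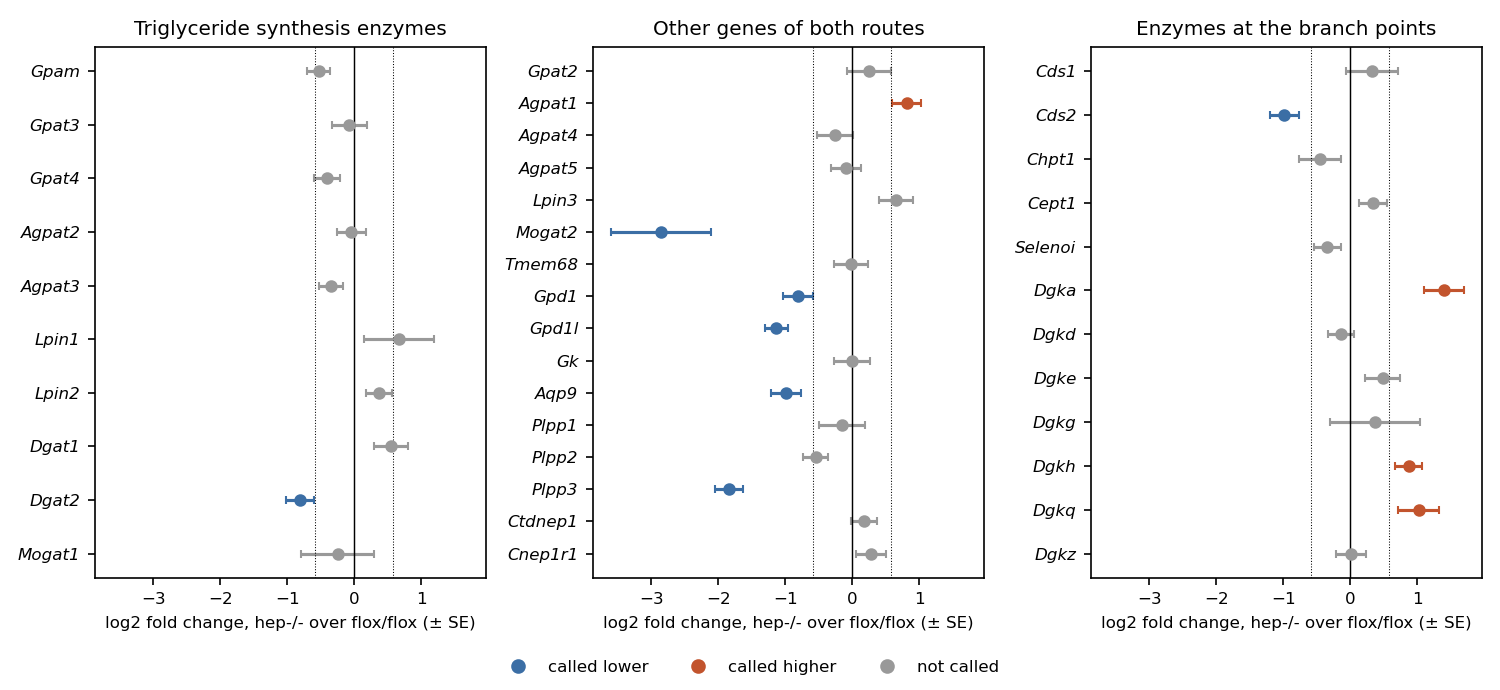
Log2 fold change of livers labelled *B4galt1* hep-/- over *B4galt1* flox/flox livers (x axis, bars are the standard error) for the 10 triglyceride synthesis genes, 16 other genes in or near the glycerol-3-phosphate and monoacylglycerol routes, and 12 enzymes that divert phosphatidate or diacylglycerol. Dotted lines stand at -0.58 and 0.58, blue is called lower, orange called higher and grey not called, and the calls number 1 of 10, 6 of 16 and 4 of 12.

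Around these 10 genes, 16 others in or near the glycerol-3-phosphate and monoacylglycerol routes were tested, and 5 were called lower and 1, *Agpat1*, higher. That is 37.5% called, against 15.8% of all tested genes. The list holds genes that are not enzymes of either route, such as *Aqp9* and *Plpp3*. Without replicate 3 labelled *B4galt1* hep-/-, 5 were called lower and 0 higher. Limma on log2(FPKM + 1), which tested 14 of them, also called 5 lower and 0 higher. The 5 lower genes included 3 that bring in the glycerol backbone. *Gpd1*, the cytosolic dehydrogenase that makes glycerol-3-phosphate from a glycolytic intermediate, had 306, 339, 218 and 269 CPM in *B4galt1* flox/flox livers and 171, 128 and 188 CPM in the others (log2 fold change -0.80, SE 0.22, edgeR adjusted p = 0.0335). Its relative *Gpd1l* had 33.6, 38.5, 37.3 and 39.1 CPM against 17.2, 15.4 and 18.3 CPM (log2 fold change -1.13, SE 0.17, edgeR adjusted p = 0.00377). *Aqp9*, the channel through which hepatocytes take up glycerol, had 452, 487, 369 and 563 CPM against 271, 188 and 246 CPM (log2 fold change -0.99, SE 0.22, edgeR adjusted p = 0.0156). None of these ranges overlapped. *Gk*, which phosphorylates glycerol, had a log2 fold change of 0.00 with a 95% interval of -0.59 to 0.58. *Gpd1l* was called in 18 of 18 alternatives and *Aqp9* in 16, while *Gpd1*, which shares 384 exon bases with the antisense gene *Gm16537*, was called in 2 of 7 fits with a mouse omitted.

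The other 2 lower genes were *Plpp3* and *Mogat2*. *Plpp3*, a phosphatase of the cell surface that degrades lysophosphatidate and phosphatidate and is also found in endothelium, had 109, 103, 125 and 99.1 CPM in *B4galt1* flox/flox livers and 28.9, 24.2 and 38.1 CPM in the livers labelled *B4galt1* hep-/-. The livers of the latter group all lay far below, and its log2 fold change of -1.84 (SE 0.21, edgeR adjusted p = 0.00189) was called in 18 of 18 alternatives. The 5 endothelial markers summed to 65.9 to 225 CPM and 83.9 to 102 CPM in the respective groups, which overlap, but 1 of the 5, *Kdr*, was called lower like *Plpp3*, and its part in this result was not tested. *Mogat2*, the monoacylglycerol acyltransferase of the intestine, was counted 129, 36, 62 and 91 times in *B4galt1* flox/flox libraries and 4, 2 and 19 times in the others (log2 fold change -2.86, SE 0.75, edgeR adjusted p = 0.0265). The livers labelled *B4galt1* hep-/- all had fewer reads than any of the others. *Mogat2* lost the call without *B4galt1* flox/flox replicate 4 or without replicate 1 or 2 labelled *B4galt1* hep-/-, and with limma on log2(FPKM + 1) without a filter. It was called in 11 of the 15 alternatives that tested it, with log2 fold changes from -4.35 to -0.85. *Mogat2* shares 55 exon bases with the antisense gene *Gm45012*. The remaining 10 genes of the list had log2 fold changes between -0.55 and 0.65 and did not pass.

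Enzymes that draw phosphatidate or diacylglycerol away from triglyceride were called in 4 of 12 cases, 1 lower and 3 higher (1 and 2 without replicate 3 labelled *B4galt1* hep-/-). This is 33.3% called, against 15.8% of all tested genes. *Cds2*, which turns phosphatidate into CDP-diacylglycerol for phosphatidylinositol, had 76.9, 69.0, 90.8 and 62.1 CPM against 30.7, 36.5 and 46.3 CPM (log2 fold change -0.98, SE 0.21, edgeR adjusted p = 0.0128), a call kept in 18 of 18 alternatives. The 3 higher genes were diacylglycerol kinases, which phosphorylate diacylglycerol back to phosphatidate, and were 3 of the 7 kinases listed. The other 4, *Dgkd* (-0.14), *Dgkz* (0.01), *Dgkg* (0.37) and *Dgke* (0.48 on the log2 scale), were not called. *Dgka* had 7.73 to 14.8 CPM in *B4galt1* flox/flox livers and 18.8 to 40.3 CPM in the others (log2 fold change 1.40), *Dgkh* 7.71 to 11.0 and 14.9 to 18.6 CPM (0.88), and *Dgkq* 12.0 to 30.9 and 25.6 to 46.7 CPM (1.02), with edgeR adjusted p = 0.0128, 0.0165 and 0.0441 in that order. Only the *Dgkq* ranges overlapped among these 3. *Dgkq* was called in 9 of 18 alternatives and in 2 of 7 fits with a mouse omitted, but not by limma on FPKM. *Dgkq* also shares 2090 exon bases with *Tmem175*, and *Dgka* shares 105 with *Pmel*, each on the other strand. *Dgkh* shares 819 with *Gm48998* on its own strand. *Chpt1*, *Cept1* and *Selenoi*, which use diacylglycerol for phosphatidylcholine and phosphatidylethanolamine, had log2 fold changes of -0.45, 0.34 and -0.34 and were not called.

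Of 9 transcription regulators known to act on these genes, 1 was called lower and 1 higher, 22.2% against 15.8% of all tested genes. *Pparg*, the nuclear receptor that drives lipid storage, had 16.6, 28.7, 17.4 and 23.3 CPM in *B4galt1* flox/flox livers and 13.3, 8.41 and 12.2 CPM in the livers labelled *B4galt1* hep-/- (log2 fold change -0.92, SE 0.25, edgeR adjusted p = 0.0311). *Mlxipl*, which encodes the carbohydrate-responsive factor ChREBP, had 26.6 to 109 CPM against 134 to 189 CPM (log2 fold change 1.40, SE 0.37, edgeR adjusted p = 0.0287). Both groups of values were apart in each gene. *Mlxipl* shares 235 exon bases with the antisense gene *Gm43500*. Without *B4galt1* flox/flox replicate 2 or 4, or without replicate 2 or 3 labelled *B4galt1* hep-/-, 0 of the 9 were called, and both calls stood in the other 3 such fits. The remaining 7 regulators had log2 fold changes from -0.41 to 0.50.

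**Figure D4:**
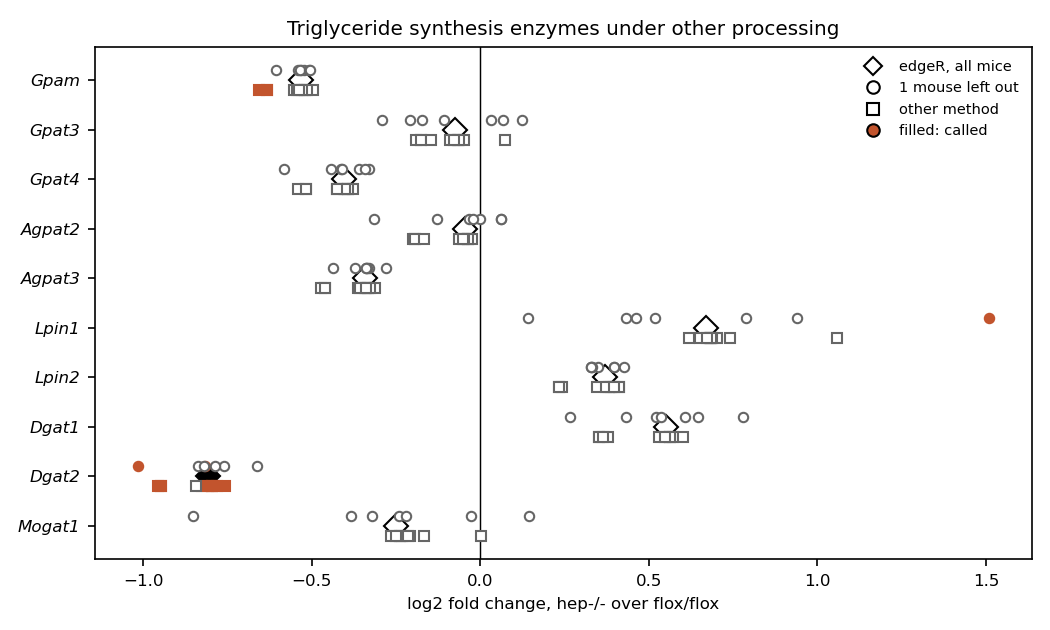
Log2 fold changes (x axis) of the 10 triglyceride synthesis genes from edgeR with all mice (diamonds), with 1 mouse left out (circles) and with other methods (squares), filled where the gene passed both thresholds. *Dgat2* stays between -1.02 and -0.66, *Lpin1* spreads from 0.14 to 1.51, and *Gpat3*, *Agpat2* and *Mogat1* lie on both sides of 0.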

How the data were processed

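RNA-seq libraries of 7 mouse livers were analysed, grouped by their labels into 4 and 3. RNA was extracted with TRIzol and libraries were made with the VAHTS Universal V6 kit. The submitters' processing notes name fastp, HISAT2, HTSeq, DESeq2, R 3.2.0 and the build GRCm39. The study used DESeq2 for differential expression and R for enrichment. The roles and settings of the other tools, the annotation release and strand-specific counting are not given in the sources used here. The authors deposited counts, unnormalized whole numbers of reads per gene, and FPKM. The deposited FPKM equalled the count divided by gene length and library total within 6.14e-06 percent in 13374 genes with at least 10 counts in every liver.

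Genes kept by filterByExpr (minimum count 10, minimum total 15) were TMM-normalized, and group was the only term of a quasi-likelihood fit (edgeR 4.0.16, R 4.3.3), with Benjamini-Hochberg adjustment over 15179 genes. Thresholds followed the study. Standard errors come from the F statistic. At these depths 3 counts are 0.0690 to 0.0987 CPM after TMM normalization. Single values were compared by two-sided exact permutation tests of means. No 2 libraries were copies (chi-square of at least 60.3 per gene). The fits were tested on simulated data. As alternatives, upper-quartile or RLE scaling, other count filters, DESeq2 1.42.0, limma 3.58.1 (FPKM with a pseudocount of 1 or 0.1, filtered to at least 1 FPKM in 3 livers, or with a pseudocount of 1 unfiltered), voom with sample weights, no mitochondrially encoded genes, the replicate number as a block, no fold change threshold, and each mouse left out were tried.

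The 10 genes, the lists and the motifs were chosen with earlier results of these data known. The text names each of the 10, every called gene of the other pathway, branch and regulator lists, and *B4galt1*. *Gk*, *Chpt1*, *Cept1*, *Selenoi*, *Dgkd*, *Dgkz*, *Dgkg* and *Dgke* were named after their values were seen. Marker lists covered hepatocytes, adipocytes (*Lep* not in the table), macrophages, stellate cells, endothelium, cholangiocytes, lymphocytes and pancreatic acinar cells, the last of which summed to 6.06 to 13.0 CPM with 0 called genes. Promoters were matched by symbol in a RefSeq table on GRCm38.p6. Chromosomes and overlapping genes are those of GENCODE M21 on GRCm38, another build than that of the counts.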

Additional observations from a re-analysis of the deposited data

Results flagged for a closer look

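*Lpin1* in *B4galt1* flox/flox replicate 3, at 234 CPM, stood far from the other 3 livers of its group, of which the nearest had 66.9 CPM. The gap took up 0.893 of the group's range, above the critical value of 0.83 (Dixon's test) for 4 samples. Of the 10 genes checked in this group 1 was singled out in this way, and chance alone does so in about 1 in 20 groups.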

How the results depend on the processing

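The number of triglyceride synthesis genes called was 1 or 2 under each method run on all mice other than the replicate block. It was 2 on log2(FPKM + 1), on log2(FPKM + 0.1) and on log2(FPKM + 1) without a filter, where *Gpam* joined *Dgat2*, and 0 to 1 when 1 mouse was left out. Without *B4galt1* flox/flox replicate 3 the 1 gene called was *Lpin1*, not *Dgat2*. Other genes in or near both routes called numbered 3 to 5, branch enzymes 1 to 4 and regulators 0 to 2 when 1 mouse was left out, and all genes 885 to 2396. The branch enzymes called were 2 on log2(FPKM + 1) and log2(FPKM + 0.1), 1 lower and 1 higher, of the 8 tested there. On log2(FPKM + 1) without a filter they were 1, which was lower, the regulators 1 and all genes 1330. On FPKM 24.5% of calls were higher, against 50.5% with TMM. Replicate numbers are shared by 3 mice of each group. Deviations of mice with the same number correlated at -0.42 to 0.09, and 0 of the 3 mice labelled *B4galt1* hep-/- correlated best with their own number, so no pairing by number was seen. The highest correlation, 0.56, was between *B4galt1* flox/flox replicate 1 and replicate 2 labelled *B4galt1* hep-/-, and what they share was not tested. With the replicate block, in which *B4galt1* flox/flox replicate 4 stands alone and adds nothing, 0 triglyceride synthesis genes, 3 other genes in or near the routes, 2 branch enzymes, 1 regulator and 1267 genes in all were called. *Gpat3* changed sign with the replicate block (0.075) and ranged from -0.29 to 0.12 when a mouse was left out. *Agpat2* ranged from -0.32 to 0.062 and *Mogat1* from -0.85 to 0.14 when a mouse was left out, and voom with sample weights gave *Mogat1* 0.000657. The cause was not tested. The 4 isozyme ratios kept their direction throughout, but only *Dgat2* to *Dgat1* stayed near its value when a mouse was left out (-1.61 to -1.13). *Agpat2* to *Agpat3* ranged from 0.13 to 0.38, *Gpam* to *Gpat4* from -0.17 to -0.03 and *Lpin1* to *Lpin2* from 0.03 to 0.996, each nearest to 0 without replicate 3 labelled *B4galt1* hep-/-. With 6 mice the exact test cannot pass 0.05.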
